A study of Homo sapiens with 12 samples.

Results

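This is an account of 143 genes of the breast cancer cell line MDA-MB-231 whose RNA was higher both after 24 hr at 1% oxygen and after knockout of CCAR2. They were picked by measured values from 60664 genes in the deposited table. A gene entered when its mean was 1 CPM or more in at least 1 group (CPM is the gene's count divided by the summed counts of its library and multiplied by 1000000, with no scaling by gene length), when its mean log2(CPM + 0.5) was higher by 0.5 or more in both comparisons with WT normoxia, and when no library of the higher group overlapped the WT normoxia libraries. Of 14420 genes that reached 1 CPM, 855 met the hypoxia part of this rule (5.93%) and 1054 met the knockout part (7.31%). The 143 that met both make 0.992% of the 14420 genes, 16.7% of the first set and 13.6% of the second. Both parts use the same 4 WT normoxia libraries, so a WT normoxia library that is low for a gene raises both differences at once, and the number of genes in common was not tested.

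The series holds 12 RNA-seq libraries in 3 groups of 4, all from MDA-MB-231, a triple-negative, mesenchymal breast cancer line. The groups are wild-type cells left untreated (WT normoxia), wild-type cells kept 24 hr in hypoxia (WT hypoxia) and untreated cells of genotype CCAR2-/- (CCAR2 KO). The knockout was made with a CRISPR lentivirus and a single guide, and whether the cells are a clone is not given in the sources used here. There was no knockout group in hypoxia. The study's methods speak of biological replicates, but the numbers they state per condition do not match the 4 libraries of each group, and the labels do not say that these came from separate cultures. Every p-value here thus measures the spread between libraries, which may be technical. The study profiled the response of these cells to low oxygen, in work on how the level of the CCAR2 protein is controlled.

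CCAR2, also called DBC1, is a nuclear protein best known for binding and inhibiting the deacetylase SIRT1. Low oxygen stops the prolyl hydroxylases that mark HIF-1 alpha and HIF-2 alpha for destruction, and the stabilized factors then bind DNA with ARNT at the hypoxia response element, a short stretch with the core A or G followed by CGTG. Their classic targets include glycolytic enzymes, the growth factor VEGFA, the prolyl hydroxylase EGLN3 as feedback, the mTORC1 inhibitor DDIT4 and the transcriptional repressor BHLHE40. In breast cancer cells they also include collagen-modifying enzymes of the matrix such as P4HA2 and PLOD1.

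To show what lies before the start of such genes, 5 members were chosen for their place in the results below, and the 250 bases upstream of the RefSeq start are given 5′ to 3′ on the gene's strand (build GRCh38.p14). ANGPTL4 had the largest hypoxia difference of the members in log2(CPM + 0.5), GPR153 the largest knockout difference and ADAM8 a large one in both, DDIT4 is a classic HIF target, and PTPRS held the most copies of the core among these 5. Capitals mark ACGTG or GCGTG on either strand.
ANGPTL4 (chr19:8363905-8364154, plus strand): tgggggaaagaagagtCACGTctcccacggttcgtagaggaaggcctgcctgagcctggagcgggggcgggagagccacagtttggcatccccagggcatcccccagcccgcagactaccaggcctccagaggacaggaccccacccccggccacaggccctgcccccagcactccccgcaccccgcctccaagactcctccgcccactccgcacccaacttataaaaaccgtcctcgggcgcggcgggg
GPR153 (chr1:6261099-6261348, minus strand): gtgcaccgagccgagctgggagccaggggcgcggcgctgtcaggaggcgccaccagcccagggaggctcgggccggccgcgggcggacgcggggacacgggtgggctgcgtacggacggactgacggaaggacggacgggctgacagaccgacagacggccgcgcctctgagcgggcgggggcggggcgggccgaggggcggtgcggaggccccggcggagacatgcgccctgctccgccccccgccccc
ADAM8 (chr10:133276869-133277118, minus strand): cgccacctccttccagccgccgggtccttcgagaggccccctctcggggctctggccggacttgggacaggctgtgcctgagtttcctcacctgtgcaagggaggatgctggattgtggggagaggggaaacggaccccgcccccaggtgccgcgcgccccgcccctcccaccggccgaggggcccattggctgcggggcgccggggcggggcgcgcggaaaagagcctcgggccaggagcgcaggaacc
DDIT4 (chr10:72273674-72273923, plus strand): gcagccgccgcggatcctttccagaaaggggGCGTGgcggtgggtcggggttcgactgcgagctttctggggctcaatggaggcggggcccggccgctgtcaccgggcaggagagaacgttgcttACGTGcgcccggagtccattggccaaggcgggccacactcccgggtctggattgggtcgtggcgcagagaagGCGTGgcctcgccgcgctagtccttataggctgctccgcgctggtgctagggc
PTPRS (chr19:5340813-5341062, minus strand): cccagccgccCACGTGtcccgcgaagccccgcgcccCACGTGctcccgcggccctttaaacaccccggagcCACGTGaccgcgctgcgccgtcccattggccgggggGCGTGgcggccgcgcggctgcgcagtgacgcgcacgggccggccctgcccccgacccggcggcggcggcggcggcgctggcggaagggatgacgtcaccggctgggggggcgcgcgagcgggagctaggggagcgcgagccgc
The DDIT4 sequence holds 3 such matches and that of ANGPTL4 holds 1. In the PTPRS sequence there are 7, of which 6 are ACGTG, read on both strands of 3 copies of the palindrome CACGTG, the E-box. The sequences of GPR153 and ADAM8 hold 0.

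The motif shares of the members were then set beside those of other genes. RefSeq windows of 250 bases before to 50 after a start were matched for 99 of the 143 members, with 133 windows since a gene can have several starts. ACGTG, searched on both strands, was in 22.6% of the member windows, in 25.3% of 15261 windows of genes that reached 1 CPM and in 21.4% of all 35116 windows. The figures for GCGTG were 31.6%, 48.2% and 36.5%, and for either core together 46.6%, 60.3% and 48.4%. The E-box CACGTG, which contains ACGTG on both strands, was in 6.77%, 9.21% and 7.26%. The AP-1 motif TGANTCA was in 7.52% of the member windows, 5.34% of those of expressed genes and 7.71% of all windows, and the cyclic AMP response element TGACGTCA in 3.76%, 2.76% and 1.85%. The share of member windows with a hypoxia core was below that of expressed genes, and none of these differences was tested. Members without a window included VEGFA, ITGB4, SLCO4A1 and STC1, and a gene with several starts counted several times.

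The knockout was checked on CCAR2 itself, which is no member. CCAR2 stood at 142, 142, 142 and 149.9 CPM in WT normoxia, 150.3, 139, 157 and 153 CPM in WT hypoxia and 54.9, 57.6, 62 and 59.6 CPM in CCAR2 KO. The knockout libraries lay below all others (exact permutation test, two-sided, 4 against 4, p = 0.0286, the smallest this design allows), with a log2 fold change of -1.34 (SE 0.04, edgeR adjusted p = 2.14e-09). In hypoxia the log2 difference of CCAR2 was 0.06 (exact permutation p = 0.286). Reads from the gene thus remained in the knockout at 58.5 ± 3.01 CPM against 144 ± 3.95 CPM in WT normoxia (SD, n = 4). Summed counts per library were 153904088 to 213743693 in WT normoxia, 76384973 to 195621872 in WT hypoxia and 68599412 to 152328450 in CCAR2 KO. Depth thus differed with the groups, every knockout library lying below every WT normoxia library. The part of depth in the members' values was not tested. The fewest counts of any member in any library were 38. The 10 identity genes of the line, 1 of them at 0 throughout, summed to 9918 to 10194 CPM in WT normoxia, 9333 to 9731 CPM in hypoxia and 9970 to 10414 CPM in the knockout.

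Sums over markers of other cell types differed between the groups. Of the 10 fibroblast genes 2 reached 1 CPM in some group, and of the 10 leukocyte genes 1, so those sums rest on few genes. The 10 fibroblast genes summed to 14.5 to 16.8 CPM in WT normoxia, 13.1 to 19.6 CPM in hypoxia and 20.8 to 24.6 CPM in the knockout, so every knockout library was above every other, and 2 of the 5 tested were called higher in the knockout than in WT normoxia. The 10 leukocyte genes summed to 87.5 to 96.1 CPM in WT normoxia, 101 to 113 CPM in hypoxia and 74.7 to 86.1 CPM in the knockout, while 2 of the 6 tested were called higher in the knockout than in WT normoxia and 0 lower. The 10 endothelial genes summed to 299 to 321 CPM in WT normoxia, 375 to 394 CPM in hypoxia and 307 to 324 CPM in the knockout. In hypoxia 2 of them, ROBO4 and TIE1, were called higher, and directly 3 were lower and 1 higher in the knockout. Of the 10, 5 reached 1 CPM in some group and 0 were at 0 throughout. The 12 luminal genes summed to 2034 to 2308, 2393 to 2700 and 1883 to 2069 CPM in the same order, with 1 called higher in the knockout than in WT normoxia and 1 lower than in hypoxia. None of these lists held a member, and their part in the members' values was not tested.

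Added over the 143 genes, member RNA was 2600 to 2967 CPM in WT normoxia, 4260 to 5200 CPM in WT hypoxia and 4284 to 4848 CPM in CCAR2 KO. The lowest hypoxia library was replicate 2, which was also the lowest of its group for 78 members. Among WT normoxia libraries, replicate 4 was the highest for 76 members, and among knockout libraries replicate 3 was the highest for 71. Members were mostly low in abundance. Their median mean was 4.56 CPM in WT normoxia, 8.09 CPM in hypoxia and 8.55 CPM in the knockout, while the median expressed gene was at 23.7, 23.8 and 24.7 CPM. In WT normoxia 20 members were under 1 CPM, 73 between 1 and 10, 46 between 10 and 100, and 4 at 100 or more. In RNA from whole cultures, fewer cells in a state and less RNA per cell cannot be told apart.

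Most members moved by less than a doubling. The difference from WT normoxia, in mean log2(CPM + 0.5), had a median of 0.74 in hypoxia and a largest value of 2.49, and a median of 0.69 in the knockout with a largest value of 2.05. A difference of 1 or more was found for 29 members in hypoxia and 19 in the knockout, and for 4 in both: ADAM8, HR, SYT12 and LASTR. Hypoxia gave the larger difference for 77 members and the knockout for 66, and the 2 differences lay within 0.25 of each other for 80. The genes nearest the limit inside it were HNRNPUL2-BSCL2 (smaller difference 0.5012), SDHAP3 (0.5011) and LINC00511 (0.5006), and those just outside were FBXL8 (0.4995), CCRL2 (0.4961) and AMPD3 (0.4961).

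**Figure D1:**
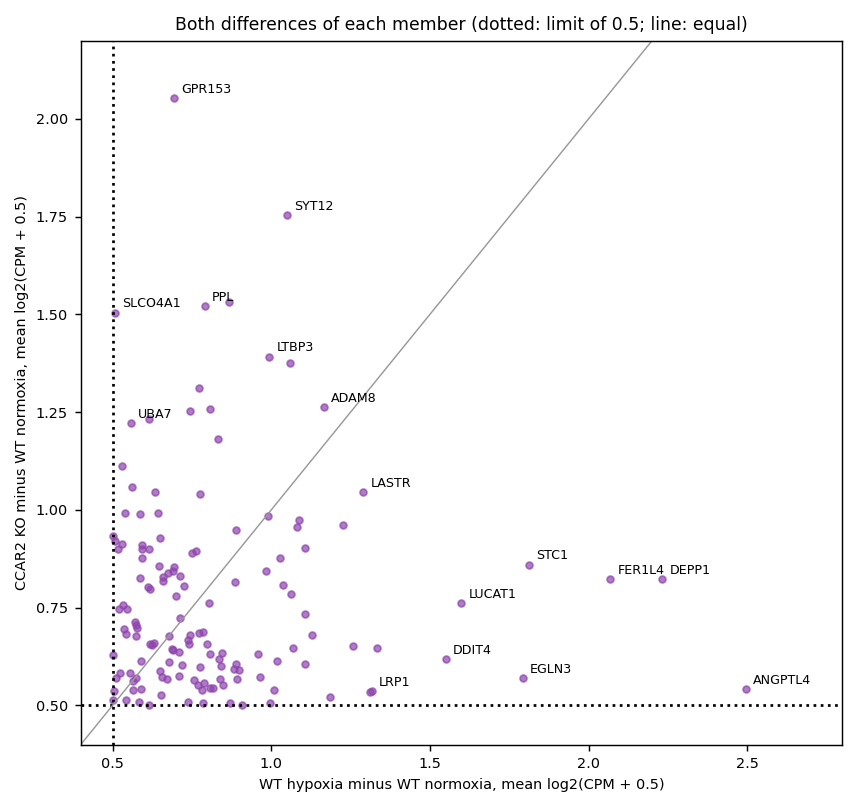
Each point is 1 of the 143 members, with its hypoxia difference on the horizontal axis and its knockout difference on the vertical axis, both in mean log2(CPM + 0.5) from the same 4 WT normoxia libraries. Dotted lines mark the limit of 0.5 that chose the genes and the grey line marks equal differences, with ANGPTL4 far to the right at 2.49 and GPR153 at the top at 2.05.

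As a description, edgeR's quasi-likelihood test over all genes called 138 of the 143 members higher in hypoxia and 135 higher in the knockout, where a call needs a Benjamini-Hochberg adjusted p under 0.05 and a log2 fold change of 0.5 or more in either direction. Over all genes tested, 5.83% were called higher and 1.43% lower in hypoxia, and 6.73% higher and 2.94% lower in the knockout. These contrasts chose the members, so nothing is read from their counts. The 5 members not called in hypoxia and the 8 not called in the knockout had adjusted p under 0.05 and fell short of 0.5 after the scaling edgeR uses. HNRNPUL2-BSCL2 was among both.

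The 12 members with the largest smaller difference spanned secreted, surface and nuclear proteins. ADAM8 (ENSG00000151651, chromosome 10, 133262403 to 133276868, GRCh38 by GENCODE 29, as for all positions of genes here), a membrane protease that sheds surface proteins, led the order. ADAM8 read 43.4, 48.5, 45.9 and 55 CPM in WT normoxia, 112, 105, 106 and 111 CPM in WT hypoxia and 110.4, 113, 124 and 116 CPM in CCAR2 KO. Its hypoxia and knockout libraries overlapped each other and lay well above WT normoxia, by 2.25-fold and 2.41-fold. LTBP3 (ENSG00000168056, chromosome 11, 65538805 to 65558930), which holds latent TGF-beta in the matrix, read 27.1, 33.3, 30.04 and 32.8 CPM in WT normoxia, 62.1, 58.1, 61.8 and 64.6 CPM in WT hypoxia and 77.8, 77.8, 88.5 and 81.6 CPM in CCAR2 KO. The knockout libraries of LTBP3 were all above the hypoxia libraries, and the differences from WT normoxia were 0.99 in hypoxia and 1.39 in the knockout. ITGB4 (ENSG00000132470, chromosome 17, 75721328 to 75757818), the integrin beta 4 chain that binds laminins, read 189.9, 195, 190.5 and 233 CPM in WT normoxia, 433, 337, 426 and 413 CPM in WT hypoxia and 373, 370.1, 448 and 409.99 CPM in CCAR2 KO. Both conditions about doubled ITGB4, by 1.99-fold in hypoxia and 1.98-fold in the knockout.

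Low-abundance genes filled much of the rest of these 12. HR, a nuclear corepressor named for the hairless phenotype, was at 2.26 ± 0.33 CPM in WT normoxia, 5.33 ± 1.26 CPM in WT hypoxia and 6.67 ± 0.807 CPM in CCAR2 KO (SD, n = 4). SYT12, of the synaptotagmin family of vesicle proteins, was at 1.49 ± 0.464 CPM in WT normoxia, 3.62 ± 0.981 CPM in WT hypoxia and 6.18 ± 1.49 CPM in CCAR2 KO (SD, n = 4). SIGIRR, a negative regulator of interleukin-1 and Toll-like receptor signalling, was at 3.9 ± 0.588 CPM in WT normoxia, 8.83 ± 1.06 CPM in WT hypoxia and 8.09 ± 0.39 CPM in CCAR2 KO (SD, n = 4). The 3 had differences of 1.06 in hypoxia and 1.38 in the knockout, of 1.05 in hypoxia and 1.75 in the knockout and of 1.09 in hypoxia and 0.97 in the knockout. BATF2, a basic leucine zipper factor, averaged 0.781 ± 0.272 CPM in WT normoxia, 1.85 ± 0.279 CPM in WT hypoxia and 1.95 ± 0.3003 CPM in CCAR2 KO (SD, n = 4). WFDC3, of the whey acidic protein family of protease inhibitors, averaged 1.01 ± 0.13 CPM in WT normoxia, 2.63 ± 0.663 CPM in WT hypoxia and 2.32 ± 0.537 CPM in CCAR2 KO (SD, n = 4). Both were under 4 CPM in every library, so their differences depend more on the added 0.5 than those of abundant genes.

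**Figure D2:**
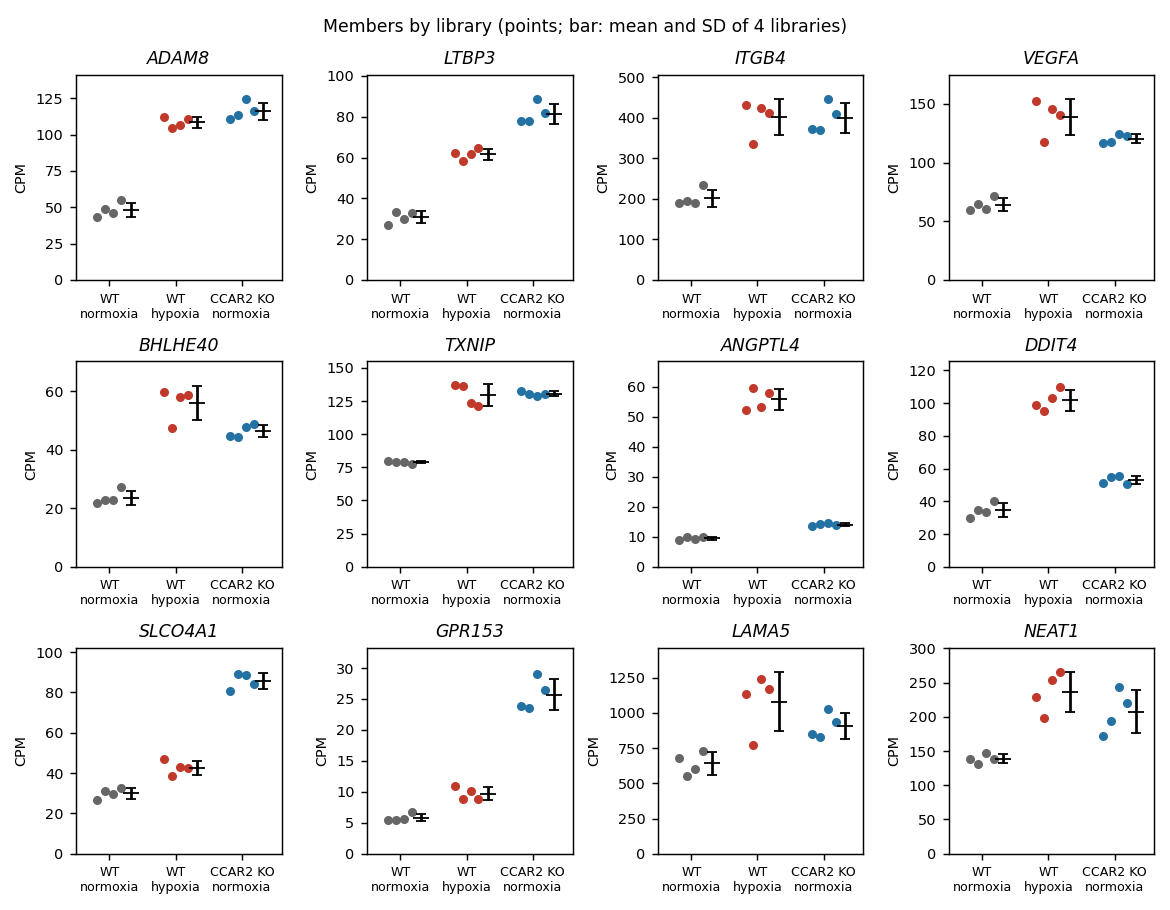
CPM of 12 members in each of the 12 libraries, with points for libraries and a bar for the mean and SD of 4. ADAM8, ITGB4 and TXNIP reached similar levels in hypoxia and in the knockout, ANGPTL4 and DDIT4 were highest in hypoxia, and SLCO4A1 and GPR153 in the knockout.

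Among the 13 secreted ligands and factors, the median difference was 1.02 in hypoxia and 0.80 in the knockout. VEGFA (ENSG00000112715, chromosome 6, 43770184 to 43786487), the main growth factor for endothelial cells, read 59.4, 64.8, 60.7 and 71.8 CPM in WT normoxia, 152, 117, 146 and 141 CPM in WT hypoxia and 116, 118, 124 and 123 CPM in CCAR2 KO. All knockout libraries of VEGFA lay above all WT normoxia libraries, and knockout and hypoxia overlapped, hypoxia replicate 2 lying within the knockout range. PGF, the placental relative of VEGFA, was at 14.9 ± 1.78 CPM in WT normoxia, 29.4 ± 2.06 CPM in WT hypoxia and 23.3 ± 1.49 CPM in CCAR2 KO (SD, n = 4). STC1, the hormone stanniocalcin-1, was at 14 ± 2.12 CPM in WT normoxia, 50.3 ± 6.03 CPM in WT hypoxia and 25.6 ± 0.743 CPM in CCAR2 KO (SD, n = 4), and its 3.59-fold rise in hypoxia stood beside 1.83-fold in the knockout.

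ANGPTL4 (ENSG00000167772, chromosome 19, 8363289 to 8374373), a secreted inhibitor of lipoprotein lipase, had the most unequal pair of differences among the members. ANGPTL4 read 8.88, 9.94, 9.26 and 9.84 CPM in WT normoxia, 52.3, 59.7, 53.3 and 57.9 CPM in WT hypoxia and 13.5, 14.3, 14.5 and 13.8 CPM in CCAR2 KO. No library of any group overlapped another group, and the fold over WT normoxia was 5.89 in hypoxia and 1.48 in the knockout. SEMA4B, a membrane semaphorin, was at 114 ± 7.26 CPM in WT normoxia, 204 ± 21.1 CPM in WT hypoxia and 172 ± 9.38 CPM in CCAR2 KO (SD, n = 4). The other secreted members were IGFBP6, which binds insulin-like growth factors, the chemokine CCL28, the death ligand TNFSF10, TNFSF15, C1QTNF6, DMBT1, WFDC3 and WFDC10B. IGFBP6 was at 37.4 ± 4.98 CPM in WT normoxia, 64 ± 2.56 CPM in WT hypoxia and 77.2 ± 4.91 CPM in CCAR2 KO (SD, n = 4) and TNFSF10 was at 3.15 ± 0.107 CPM in WT normoxia, 6.9 ± 0.562 CPM in WT hypoxia and 5.09 ± 0.432 CPM in CCAR2 KO (SD, n = 4).

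The 16 matrix, protease and adhesion genes had a median difference of 0.76 in hypoxia and 0.82 in the knockout. LAMA5 (ENSG00000130702, chromosome 20, 62307955 to 62367312), the laminin alpha 5 chain of basement membranes and the member with the most reads, read 679, 551, 602 and 733 CPM in WT normoxia, 1137, 775, 1244 and 1169 CPM in WT hypoxia and 849.7, 827, 1028 and 936 CPM in CCAR2 KO. Hypoxia replicate 2 of LAMA5 was close to the highest WT normoxia library, and the knockout difference of 0.51 was near the limit. COL5A1, COL6A2 and COL7A1 are collagen chains. COL5A1 was at 26.3 ± 2.67 CPM in WT normoxia, 55.8 ± 8.74 CPM in WT hypoxia and 45.5 ± 1.05 CPM in CCAR2 KO (SD, n = 4), and its differences were 1.06 in hypoxia and 0.78 in the knockout. COL6A2 was at 28.8 ± 3.16 CPM in WT normoxia, 43.5 ± 1.87 CPM in WT hypoxia and 54.3 ± 2.92 CPM in CCAR2 KO (SD, n = 4), and its order was the opposite, with 0.59 in hypoxia and 0.91 in the knockout. COL7A1, the anchoring fibril collagen, had 0.68 in hypoxia and 0.61 in the knockout.

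The adhesion receptor for leukocytes ICAM1 was at 23.9 ± 1.99 CPM in WT normoxia, 40.2 ± 0.965 CPM in WT hypoxia and 37.9 ± 1.97 CPM in CCAR2 KO (SD, n = 4). LTBP2, a matrix relative of LTBP3, was at 12 ± 1.02 CPM in WT normoxia, 19.95 ± 4.13 CPM in WT hypoxia and 22 ± 1.28 CPM in CCAR2 KO (SD, n = 4). PPL, the desmosomal protein periplakin, was at 6.58 ± 0.701 CPM in WT normoxia, 11.7 ± 1.07 CPM in WT hypoxia and 19.9 ± 2.21 CPM in CCAR2 KO (SD, n = 4) and rose more in the knockout (3.01-fold against 1.78-fold). The group also held LAMA4, ITGB3, ADAMTS15, OLFML2A, CLSTN3 and MELTF, the last at 59.3 ± 3.32 CPM in WT normoxia, 103 ± 6.32 CPM in WT hypoxia and 96 ± 6.8 CPM in CCAR2 KO (SD, n = 4).

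The 15 oxygen, nutrient and metabolic genes had a median difference of 0.77 in hypoxia and 0.63 in the knockout. TXNIP (ENSG00000265972, chromosome 1, 145992435 to 145996600), which binds thioredoxin and slows glucose uptake, read 79.4, 79.2, 79.3 and 77.4 CPM in WT normoxia, 137, 137, 124 and 122 CPM in WT hypoxia and 133, 130.2, 129 and 130.1 CPM in CCAR2 KO. The hypoxia and knockout means of TXNIP were close, at 129.6 and 130.5 CPM. DDIT4 (ENSG00000168209, chromosome 10, 72273920 to 72276036), an inhibitor of mTORC1 induced by stress, read 29.9, 34.7, 33.4 and 40.2 CPM in WT normoxia, 98.6, 95, 103 and 110.1 CPM in WT hypoxia and 50.9, 55.2, 55.6 and 50.7 CPM in CCAR2 KO. The 3 groups of DDIT4 did not overlap, with the knockout between the other two.

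EGLN3, the oxygen-sensing prolyl hydroxylase, was at 2.91 ± 0.37 CPM in WT normoxia, 11.3 ± 0.61 CPM in WT hypoxia and 4.56 ± 0.482 CPM in CCAR2 KO (SD, n = 4). DEPP1, a FOXO target, was at 1.31 ± 0.176 CPM in WT normoxia, 8.03 ± 0.905 CPM in WT hypoxia and 2.74 ± 0.559 CPM in CCAR2 KO (SD, n = 4). For EGLN3 the fold over WT normoxia was 3.87 in hypoxia and 1.56 in the knockout, and for DEPP1 6.11 and 2.08. P4HA2 and PLOD1, which hydroxylate collagen prolines and lysines, had differences of 0.81 in hypoxia and 0.63 in the knockout and of 0.96 in hypoxia and 0.57 in the knockout. The glucose transporter SLC2A3 was at 37.9 ± 2.08 CPM in WT normoxia, 61.4 ± 3.41 CPM in WT hypoxia and 59.4 ± 0.951 CPM in CCAR2 KO (SD, n = 4). The carbonic anhydrase CA12 was at 4.61 ± 0.61 CPM in WT normoxia, 6.86 ± 0.809 CPM in WT hypoxia and 9.08 ± 0.412 CPM in CCAR2 KO (SD, n = 4), higher in the knockout. The rest were H6PD, CYP24A1, SARDH, GGT1, ALDH3B1, ARSL and NOXA1.

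The 34 receptors and signalling genes ranged from 0.50 to 1.32 in hypoxia and from 0.50 to 2.05 in the knockout. GPR153 (ENSG00000158292, chromosome 1, 6247346 to 6260975), an orphan G protein-coupled receptor, read 5.39, 5.52, 5.67 and 6.67 CPM in WT normoxia, 10.9, 8.9, 10.2 and 8.87 CPM in WT hypoxia and 23.9, 23.6, 29 and 26.5 CPM in CCAR2 KO. Every knockout library was above every hypoxia library of GPR153, and every hypoxia library above every WT normoxia library. SMAD6, an inhibitor of BMP signalling, was at 2.19 ± 0.302 CPM in WT normoxia, 3.69 ± 0.457 CPM in WT hypoxia and 5.04 ± 0.237 CPM in CCAR2 KO (SD, n = 4). LRP1, a large endocytic receptor, was at 38.7 ± 7.28 CPM in WT normoxia, 97.4 ± 19.2 CPM in WT hypoxia and 55.8 ± 5.82 CPM in CCAR2 KO (SD, n = 4) and was the reverse of GPR153, with 1.32 in hypoxia and 0.54 in the knockout. PTPRS, PTPRB and PTPRH are receptor tyrosine phosphatases, and PTPRS was at 26.7 ± 2.88 CPM in WT normoxia, 50.04 ± 9.12 CPM in WT hypoxia and 40.3 ± 2.06 CPM in CCAR2 KO (SD, n = 4). Others in the group were the receptor tyrosine kinase MST1R, the semaphorin receptor PLXNB3, MC1R, TNFRSF8 and the adenylyl cyclase ADCY6. RASA4 and RASA4B are near-identical copies on chromosome 7, 56026 bases apart, and reads could be divided between them, so their separate values are uncertain.

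The 6 transcription regulators were HR, BHLHE40, BHLHE41, BATF2, MNT and ZNF467. BHLHE40 (ENSG00000134107, chromosome 3, 4979116 to 4985323), a circadian and hypoxia-induced repressor that binds E-boxes, read 21.7, 22.8, 22.8 and 27.1 CPM in WT normoxia, 59.7, 47.4, 58 and 58.8 CPM in WT hypoxia and 44.8, 44.2, 47.7 and 48.7 CPM in CCAR2 KO. All knockout values of BHLHE40 were above all WT normoxia values, and all but 1 hypoxia library, replicate 2, were above all knockout libraries. Its relative BHLHE41 was at 2.1 ± 0.11 CPM in WT normoxia, 4.04 ± 0.315 CPM in WT hypoxia and 3.91 ± 0.321 CPM in CCAR2 KO (SD, n = 4). MNT, a repressor that pairs with MAX and opposes MYC, was at 21.9 ± 1.1 CPM in WT normoxia, 33.4 ± 4.46 CPM in WT hypoxia and 33.9 ± 3.5 CPM in CCAR2 KO (SD, n = 4).

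The 6 interferon and immune recognition genes, a group formed after the members were seen, had a median difference of 0.60 in hypoxia and 0.92 in the knockout. Between knockout and hypoxia 2 of the 6, UBA7 and IFI27, were called higher in the knockout and 4 were not called, where 7.08% of all genes tested were called higher and 7.88% lower. UBA7, the enzyme that activates ISG15 for conjugation, was at 9.11 ± 0.617 CPM in WT normoxia, 13.7 ± 1.11 CPM in WT hypoxia and 21.9 ± 1.41 CPM in CCAR2 KO (SD, n = 4). IFI27, an interferon-induced gene, was at 2.93 ± 0.519 CPM in WT normoxia, 4.54 ± 0.634 CPM in WT hypoxia and 6.59 ± 0.72 CPM in CCAR2 KO (SD, n = 4). BTN3A1 and BTN3A2, genes of the butyrophilin family, lie 23917 bases apart on chromosome 6. PARP10 and the iron regulator HFE complete the group.

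Of the 8 transporter and channel genes, SLCO4A1 and SLC45A1 were called between knockout and hypoxia, in opposite directions, and the other members were SLC1A1, SLC22A18, SLC23A3, SLC25A45, the calcium channel subunit ORAI3 and CLIC3. The 11 cytoskeletal and motor genes had a median difference of 0.62 in hypoxia and 0.68 in the knockout. They were the giant muscle protein nebulin (NEB) and its relative NEBL, the myosins MYO7A and MYO15B, the dynein DNAH1, SPTBN5, ANK1, OBSL1, ESPN, TTLL1 and IFT27. NEBL was at 1.1 ± 0.059 CPM in WT normoxia, 2.19 ± 0.309 CPM in WT hypoxia and 3.35 ± 0.599 CPM in CCAR2 KO (SD, n = 4) and was called, higher in the knockout than in hypoxia. A further 12 protein-coding members fitted none of these roles, with medians of 0.60 and 0.66, among them the DNA polymerase delta subunit POLD4 and the synuclein SNCG.

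Of the 143 members, 121 were protein-coding (84.6%, against 86.3% of the 14420 genes), 15 long noncoding (10.5% against 8.16%), 4 pseudogenes and 3 mitochondrial tRNA genes. NEAT1 (ENSG00000245532, chromosome 11, 65422774 to 65445540), the scaffold of nuclear paraspeckles, read 139, 132, 148 and 138 CPM in WT normoxia, 229, 198, 253 and 265 CPM in WT hypoxia and 172, 194, 244 and 221 CPM in CCAR2 KO. Knockout and hypoxia libraries of NEAT1 overlapped. LASTR was at 0.472 ± 0.12 CPM in WT normoxia, 1.86 ± 0.0926 CPM in WT hypoxia and 1.51 ± 0.268 CPM in CCAR2 KO (SD, n = 4), LUCAT1 was at 5.66 ± 1.27 CPM in WT normoxia, 18 ± 2.58 CPM in WT hypoxia and 9.84 ± 1.21 CPM in CCAR2 KO (SD, n = 4) and LINC00511 was at 4.45 ± 0.37 CPM in WT normoxia, 6.51 ± 0.714 CPM in WT hypoxia and 8.93 ± 0.382 CPM in CCAR2 KO (SD, n = 4). FER1L4, a pseudogene of the ferlin family, was at 1.41 ± 0.513 CPM in WT normoxia, 7.37 ± 0.808 CPM in WT hypoxia and 2.88 ± 0.822 CPM in CCAR2 KO (SD, n = 4).

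SLCO4A1, an organic anion transporter, overlaps its antisense gene SLCO4A1-AS1 on chromosome 20. SLCO4A1 read 26.4, 30.9, 29.6 and 32.7 CPM in WT normoxia, 46.9, 38.5, 43 and 42.3 CPM in WT hypoxia and 80.7, 88.9, 88.5 and 84.2 CPM in CCAR2 KO. SLCO4A1-AS1 was at 4.32 ± 0.845 CPM in WT normoxia, 8.004 ± 0.686 CPM in WT hypoxia and 10.3 ± 0.998 CPM in CCAR2 KO (SD, n = 4). Whether reads were counted by strand is not given in the sources used here, and the counts may be estimates that divide reads among overlapping genes, so the reads of the pair cannot be told apart. The same holds for the readthrough genes ARPC4-TTLL3 and HNRNPUL2-BSCL2, which share exons with their neighbours.

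MT-TA, MT-TN and MT-TC, tRNA genes for alanine, asparagine and cysteine, lie side by side on 1 strand of the mitochondrial genome between 5587 and 5826. MT-TN read 49.6, 44.5, 56.9 and 44 CPM in WT normoxia, 67.9, 92.2, 70.1 and 91.7 CPM in WT hypoxia and 78.7, 72.3, 67 and 86 CPM in CCAR2 KO. The differences were 1.07 in hypoxia and 0.65 in the knockout for MT-TA, 0.71 in hypoxia and 0.64 in the knockout for MT-TN and 0.56 in hypoxia and 0.58 in the knockout for MT-TC. MT-TY, the next gene on that strand, missed the limit with 0.35 in hypoxia and 0.45 in the knockout. Other mitochondrial RNA genes were called too. Of the 21 tRNA and rRNA genes of the mitochondrion that are no members, edgeR called 6 higher in hypoxia (MT-TF with a log2 fold change of 1.52, MT-TP 0.88, MT-RNR1 0.83, MT-TR 0.77, MT-TT 0.58 and MT-TG 0.51) and 2 lower (MT-TL1 -0.86 and MT-TI -0.77). In the knockout 0 of the 21 were called against WT normoxia, and against hypoxia 2 were higher and 6 lower. Of the 13 mitochondrially encoded protein genes, 0 were called in any of the 3 edgeR comparisons at the adjusted p and fold limits, though in hypoxia MT-ND1 stood at -0.41 (adjusted p = 0.00562) and MT-ND2 at -0.44 (adjusted p = 0.00697).

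**Figure D3:**
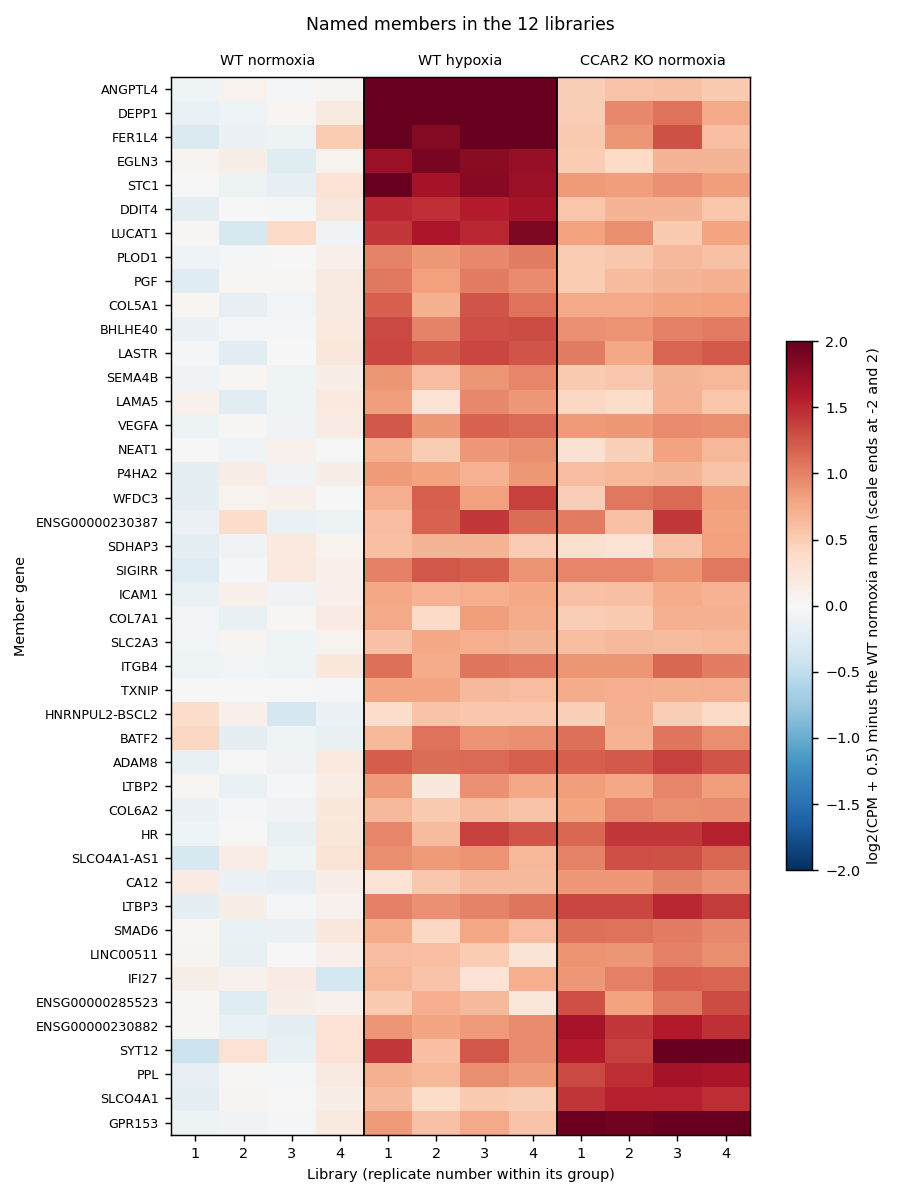
The 44 named members (rows) in the 12 libraries (columns), as log2(CPM + 0.5) minus the WT normoxia mean of the gene, with rows in order of the knockout minus hypoxia difference. ANGPTL4, DEPP1 and FER1L4 at the top are darkest in hypoxia, GPR153, SLCO4A1 and PPL at the bottom are darkest in the knockout, and the rows between differ less between the 2 conditions.

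The choice of members did not fix which condition was higher, so CCAR2 KO was compared directly with WT hypoxia, using the same libraries. By edgeR over 21158 genes, 11 members were called higher in the knockout (7.69%) and 15 lower (10.5%), and 117 were not called. Among all genes tested, 7.08% were called higher and 7.88% lower, so the members' shares were near the background. The median log2 fold change of the members was -0.07 and that of all genes -0.02. By libraries alone, 28 members had all 4 knockout values above all 4 hypoxia values, 25 had them all below and 90 overlapped. In the 14420 genes with 1 CPM, 25.3% had all knockout values above and 21.8% all below. Without hypoxia replicate 2 the members called were 12 and 18, and without knockout replicate 3 they were 8 and 17. A member that was not called is not shown to be equal in both conditions.

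Of the 15 members lower in the knockout than in hypoxia, 3 were on the list of hypoxia targets described below. The log2 fold change of ANGPTL4 was -2.01 (SE 0.07, adjusted p = 6.23e-09). DEPP1 followed with -1.57 (SE 0.16, adjusted p = 1.88e-05) and FER1L4 with -1.37 (SE 0.18, adjusted p = 1.36e-04). EGLN3 had -1.32 (SE 0.10, adjusted p = 2.56e-06), STC1 had -0.99 (SE 0.07, adjusted p = 1.91e-06) and DDIT4 had -0.96 (SE 0.06, adjusted p = 2.62e-07). All 6 had 4 of 4 knockout libraries below the lowest hypoxia library. LUCAT1 at -0.89 (SE 0.12, adjusted p = 1.46e-04) and LRP1 at -0.82 (SE 0.12, adjusted p = 3.50e-04) followed, along with WFDC10B, FAM83A, C6orf223, SLC45A1, BAIAP3, TRIM9 and ENSG00000255031, the last with overlapping libraries. These were edgeR values, as are those of the next paragraph.

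Of the 11 members higher in the knockout, GPR153 had the largest log2 fold change at 1.39 (SE 0.09, adjusted p = 5.76e-07). SLCO4A1 had 0.99 (SE 0.06, adjusted p = 2.92e-07), PPL had 0.74 (SE 0.09, adjusted p = 8.51e-05) and UBA7 had 0.67 (SE 0.07, adjusted p = 3.09e-05). SYT12 had 0.76 (SE 0.21, adjusted p = 0.0145) with overlapping libraries, and without knockout replicate 3 its adjusted p was 0.05004, just past the threshold. IFI27, at 0.52 (SE 0.13, adjusted p = 0.00907), GGT1, NEBL, C11orf86 and the noncoding genes ENSG00000230882 and ENSG00000285523 made up the rest. The knockout and hypoxia libraries of C11orf86 overlapped too. By group, the 13 secreted factors held 3 of the lower calls and 0 of the higher, the 15 oxygen and metabolic genes 3 and 1, the 34 receptors and signalling genes 4 and 2, and the 16 matrix genes 0 and 1. Both interferon-related calls, IFI27 and UBA7, were higher in the knockout.

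Several well-known members differed by less than the fold limit. The log2 fold change was 0.08 (SE 0.05, adjusted p = 0.235) for ADAM8, -0.02 (SE 0.08, adjusted p = 0.873) for ITGB4 and -0.01 (SE 0.06, adjusted p = 0.934) for TXNIP. VEGFA at -0.22 (SE 0.06, adjusted p = 0.0186) and BHLHE40 at -0.29 (SE 0.07, adjusted p = 0.00583) were lower in the knockout by the edgeR adjusted p alone, and LTBP3 at 0.38 (SE 0.05, adjusted p = 2.03e-04) was higher. With the adjusted p alone, 26 members were higher and 35 lower.

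**Figure D4:**
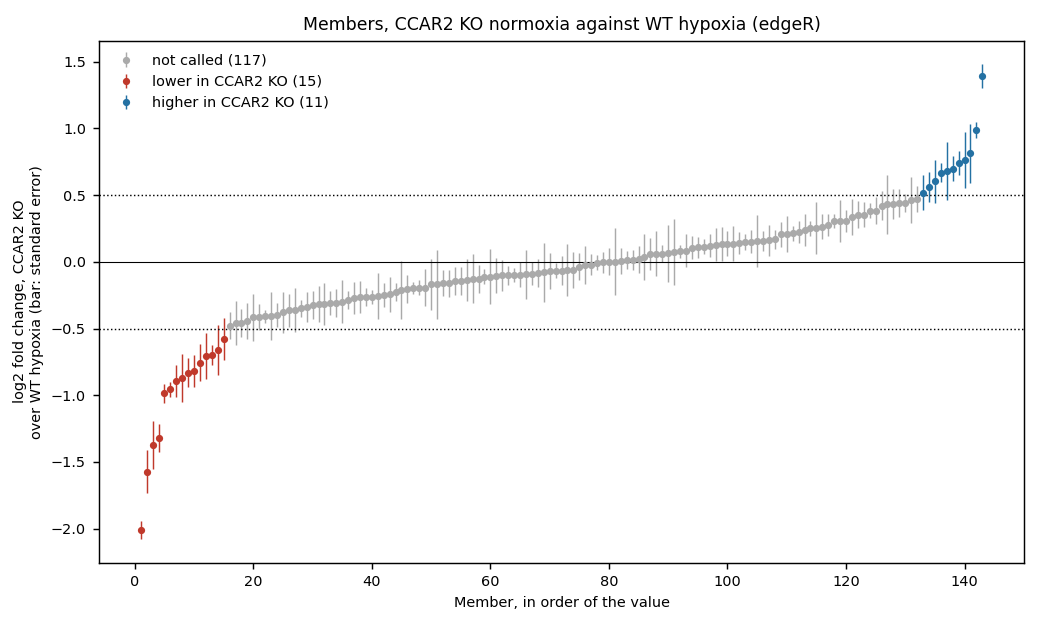
The log2 fold change of CCAR2 KO over WT hypoxia for the 143 members in order of the value. Bars show the standard error worked out from edgeR's fold change and F statistic, and dotted lines lie at -0.5 and 0.5. Red marks the 15 called lower, blue the 11 called higher and grey the 117 not called.

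The members make a small part of the gene lists they belong to, which were written with earlier results of these data known. The rule picked members as higher in both comparisons with WT normoxia, so they add to the higher calls there by choice. The list counts in those comparisons are descriptions and include the members. Among all genes tested, 5.83% were called higher and 1.43% lower in hypoxia, and 6.73% and 2.94% in the knockout. Between knockout and hypoxia the shares were 7.08% higher and 7.88% lower. A list of 50 hypoxia targets, among which 40 were called higher in hypoxia and 0 lower, held 9 members: ANGPTL4, BHLHE40, CA12, DDIT4, EGLN3, P4HA2, PLOD1, SLC2A3 and VEGFA. In the knockout 9 genes of the list were called higher, which were these 9 members, and 2 lower. Directly, 35 of the 50 were called lower in the knockout than in hypoxia and 0 higher, with a median log2 fold change of -0.77 against -0.02 over all genes. Of the 9 members, ANGPTL4, DDIT4 and EGLN3 were among the 35.

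The list of 42 matrix, protease and adhesion genes held 6 members, ADAM8, COL5A1, COL6A2, COL7A1, ITGB4 and LAMA5. Of its 39 tested genes, 9 were called higher and 1 lower in hypoxia, and 22 higher and 2 lower in the knockout. Of 40 tested between knockout and hypoxia, 14 were higher and 3 lower. The TGF-beta list of 29 genes, 28 of them tested, held LTBP2, LTBP3 and SMAD6. In hypoxia 3 were called higher, which were these 3 members. In the knockout 11 were called higher and 2 lower, and in the direct comparison 9 higher and 2 lower. The secreted vascular and endocrine list of 38 held ANGPTL4, PGF, SEMA4B, STC1 and VEGFA, with 12 higher and 3 lower in hypoxia, 14 higher and 9 lower in the knockout, and 8 higher and 14 lower directly.

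The interferon, cytokine and nutrient brake lists had more genes called higher in the knockout than in hypoxia. The interferon and antigen presentation list held 1 member, IFI27. Its 36 tested genes had 2 called higher and 5 lower in hypoxia, 17 higher and 0 lower in the knockout, and 18 higher and 0 lower directly. The cytokine and NF-kB list held ICAM1. Of its 31 tested genes, 4 were higher and 2 lower in hypoxia, 13 and 0 in the knockout, and 13 and 3 directly. The list of nutrient brakes and FOXO targets, 20 tested, held DEPP1 and TXNIP, with 2 and 2, 9 and 0, and 5 and 1. Its 2 genes called higher in hypoxia were DEPP1 and TXNIP. The noncoding RNA list, 22 tested, held LINC00511, LUCAT1 and NEAT1, with 5 and 0, 5 and 2, and 2 and 4. The lists for p53 targets, the unfolded protein response, lysosome, MAPK and AP-1, sterols, mucins, Notch, splicing, proliferation and housekeeping held 0 members. Of the 36 proliferation genes, 0 were called higher in any comparison and 1 was lower in the knockout.

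**Figure D5:**
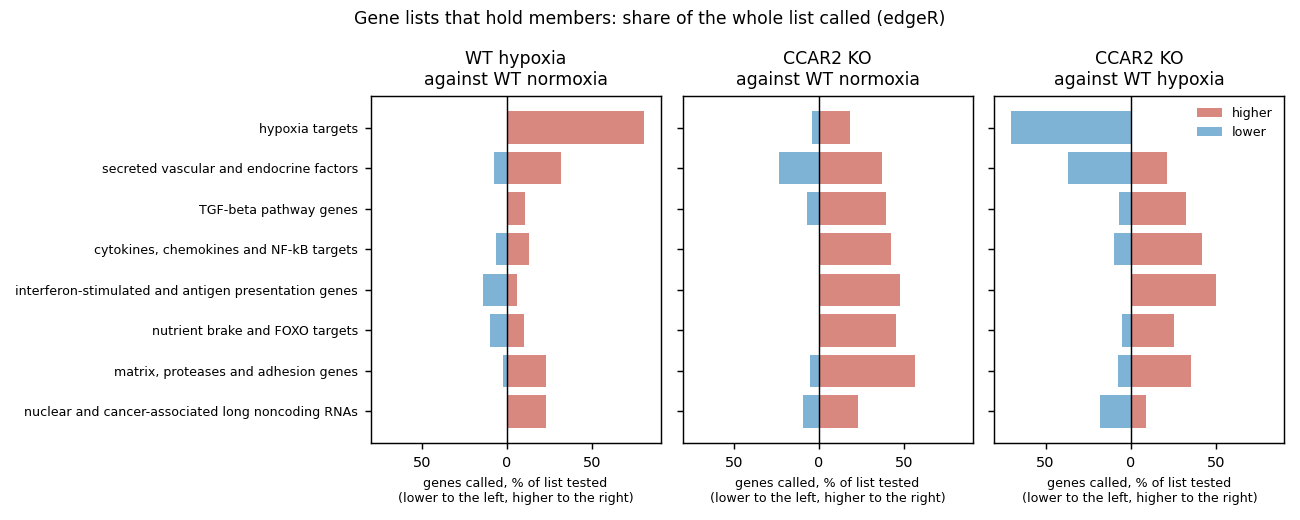
Share of each list called higher (right) or lower (left) by edgeR in the 3 comparisons, as a percent of the genes of the list tested, for the 8 lists that hold members. Hypoxia targets rise in hypoxia and are lower in the knockout than in hypoxia. The interferon list is higher in the knockout in both of its comparisons. Shares include the members.

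Member transcripts were rich in G and C, a property the rule did not use. Their median GC content was 57.7% (quartiles 50.7% and 61.7%) against 48.3% (42.1% and 56.3%) for 14330 expressed genes with a value, and their median length was 3801 bases against 3473. Medians were also taken over all genes that edgeR tested, a wider set, with GC content at or above the members' lower quartile. Their median log2 fold change was 0.13 in hypoxia, 0.04 in the knockout and -0.11 between knockout and hypoxia. When each library's trend with GC content was removed, a step added after seeing the data, 97 genes met the rule, of which 89 were among the 143. The part of GC content in the direct comparison was not tested. The other settings tried that kept the 0.5 difference gave 99 to 198 genes. Without WT normoxia replicate 4 there were 179 and without hypoxia replicate 2 there were 169.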

How the data were processed

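Per the labels, RNA was extracted with Trizol and libraries were made with an Illumina TruSeq kit, whereas the study's methods name miRNeasy and NEBNext kits, so the kit is uncertain, as is how the methods' replicate numbers relate to the 4 libraries per group. The authors deposited 1 table of expected counts (estimated counts per gene, whole numbers, not normalized). The submitters' processing notes name HISAT2, SAMtools and featureCounts without versions, whereas the study's methods name StringTie for quantification, and rows named by identifier and symbol are of the kind StringTie tables carry. The counts may therefore be estimates from assembled transcripts, in which reads of overlapping genes are divided by a model. The genome build is not given in the sources used here. Gene positions and kinds came from GENCODE 29 (143 of 143 member identifiers matched) and promoters from RefSeq.

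The members and the gene lists were chosen with earlier results of these data known, and roles were assigned after the members were seen. Samples were grouped by genotype and treatment in the labels. The rule was applied to CPM by column sum (pseudocount 0.5). Groups were compared in pairs with edgeR 4.0.16 (R 4.3.3, TMM, filterByExpr, glmQLFTest, Benjamini-Hochberg), after a test on simulated data. Each SE beside an edgeR value is the absolute log2 fold change divided by the square root of the quasi-likelihood F statistic. In counts simulated for knockout against hypoxia, 200 genes drawn at random from all 21158 tested were given a log2 change of 1. Of these edgeR recovered 56.5%, with 4 false calls. Over all genes, real differences of that size can thus go uncalled. The draw was not matched to the members in abundance, so the share for members was not measured. Alternatives were DESeq2 1.42.0 and limma-voom 3.58.1, other scalings and filters, and leaving out libraries. Python 3.11.15 and scipy 1.17.1 gave permutation tests, and statsmodels 0.14.6 the lowess fit (span 0.3). Summed counts of 68599412 to 213743693 per library set the counting error. No intervals or floors were added for members, whose lowest count was 38. The pseudocount of 0.5 still bears on which genes of low CPM met the rule.

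Named members were the 12 with the largest smaller difference, the 8 with the highest mean CPM, the 6 highest and 6 lowest called between knockout and hypoxia, those on a list, the 3 nearest the limit on each side, and noncoding genes with a symbol among the 20 largest. Other members were named after their values were seen.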

Additional observations from a re-analysis of the deposited data

Results flagged for a closer look

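For the 44 named members, each of the 3 groups of 4 libraries was tested for a library standing apart on the log2(CPM + 0.5) scale, by the gap to its nearest neighbour as a share of the group's range (Dixon's ratio, against its 95% critical value for 4 samples). Of 132 groups 9 were past the value, where chance gives about 1 in 20, or about 6.6. In WT normoxia, ITGB4 was high in replicate 4 at 233 CPM (ratio 0.880), TXNIP was low in replicate 4 at 77.4 CPM (0.882) and IFI27 was low in replicate 4 at 2.16 CPM (0.849). BATF2 was high in replicate 1 at 1.19 CPM (0.830), ENSG00000230387 was high in replicate 2 at 0.894 CPM (0.943) and EGLN3 was low in replicate 3 at 2.36 CPM (0.858). In WT hypoxia, BHLHE40 was low in replicate 2 at 47.4 CPM (0.872), FER1L4 was low in replicate 2 at 6.17 CPM (0.865) and HNRNPUL2-BSCL2 was low in replicate 1 at 28.1 CPM (0.882). No group of the knockout was past it among these 44 genes.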

How the results depend on the processing

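The number of genes that met the rule was 119 with TMM scaling (118 of them among the 143). It was 198 and 103 with a pseudocount of 0.1 and 1. A minimum of 0.5 and 5 CPM gave 150 and 99, and allowing overlap gave 172. With 2 separate WT normoxia libraries for each comparison it was 141 to 153, of which 117 to 121 were among the 143. No overlap is easier to meet against 2 libraries than against 4, so these counts cannot show what sharing the controls adds. With a difference of at least 1 the number fell to 4. Leaving out single libraries gave 135 to 179 (126 to 142 among the 143), and without the 3 libraries of lowest sum, added after seeing the data, 191 (130). Between knockout and hypoxia, the 11 higher and 15 lower members were the same genes with DESeq2, limma-voom, other normalizations, filters and all 12 libraries in 1 fit. Leaving out single libraries gave 8 to 12 higher and 14 to 18 lower. With the adjusted p alone there were 26 and 35 members and, over all genes, 3628 higher and 3762 lower, and with a log2 fold change of at least 1 there were 1 and 4 members and 582 and 637 genes. A replicate block also called 11 and 15. Same-numbered libraries of 2 groups did not deviate together (correlations -0.02 to 0.07), and no pairing was used. These correlations cannot exclude that same-numbered libraries were cultured or prepared together. In short promoter windows of 100 bases before to 50 after the start, ACGTG was in 9.02% of member and 14.6% of expressed windows. Counts of under 1 CPM depend on the pseudocount: the hypoxia difference of LASTR was 1.80 with 0.1 and 0.96 with 1.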

Other observations

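Members were unevenly spread over the chromosomes. Chromosome 11 held 14 (9.79%, against 5.57% of the genes that reached 1 CPM) and chromosome 20 held 11 (7.69% against 2.67%), while chromosomes 4 and 18 held 0. There were 15 pairs of members within 100 kb of each other, a number that was not set beside that for other expressed genes. On chromosome 20 these were SLCO4A1 with SLCO4A1-AS1 and ENSG00000277496, and WFDC3 with WFDC10B, and on chromosome 11 LTBP3 and SLC25A45 with NEAT1, SYT12 with C11orf86, and ALDH3B1 with ENSG00000255031. Other pairs were SH3TC2 with its divergent transcript SH3TC2-DT, 154 bases apart, and MST1R with UBA7. The uneven spread was not tested.

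The edited gene CCAR2 lies on chromosome 8, and 7 members lie on that chromosome (4.90%, against 3.38% of the genes that reached 1 CPM). HR starts 0.490 Mb to 1 side of CCAR2 and STC1 1.24 Mb to the other. PLEKHA2 and ANK1 are 16.3 and 19.05 Mb away, and FAM83A, PARP10 and WDR97 over 100 Mb. Whether distance from the edited gene bears on their values was not tested.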
